A study of Mus musculus with 45 samples.

Results

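The genes described here build and load major histocompatibility complex (MHC) class I, the surface complex that shows peptides from inside a cell to T cells. The set of 34 genes was taken by name, by role in the pathway, out of 24421 genes in the table. It holds 9 class I heavy chains, the light chain B2m, 7 genes of peptide transport and loading, and the peptide-trimming enzyme Erap1. It also holds 3 immunoproteasome subunits, both chains of the proteasome activator PA28, and Nlrc5, which encodes a transactivator of class I genes. The 3 standard catalytic subunits of the proteasome and 7 subunits of its alpha ring complete the set.

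Poly(A) RNA was sequenced from macrophages grown from the bone marrow of C57BL/6 mice in L929-conditioned medium, a source of the growth factor M-CSF, up to day 7. The 21 libraries form 7 groups of 3. One group was untreated, and the other groups received 10 ng/ml of IL-4, 100 ng/ml of IFN-γ, or the 2 cytokines together, each with a 2 h and a 4 h time point. All 6 treated groups share the same 3 untreated libraries as control. A further 24 of the 45 samples in the series are not analysed here.

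The proteasome cuts cytosolic proteins into peptides. IFN-γ is known to switch on Psmb8, Psmb9 and Psmb10, whose products replace the standard catalytic subunits Psmb5, Psmb6 and Psmb7 in the immunoproteasome. The TAP transporter carries peptides into the endoplasmic reticulum, where tapasin and chaperones load them onto a heavy chain bound to B2m. IFN-γ induces the transcription factor IRF1, and NLRC5 acts at class I promoters together with RFX, CREB/ATF and NF-Y proteins. IL-4 acts through STAT6 and drives the alternative activation of macrophages.

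Levels are given as CPM, the reads of a gene relative to all assigned reads of its library, rescaled between libraries by the median ratio over genes, and a log2 change is on the log2(CPM + 1) scale, with its standard error after ±. The words rose and fell are kept for genes that limma called at an adjusted p under 0.05 over 11380 tested genes. That fit did not include the replicate number. Totals ran from 28920801 to 80028327 reads per library. Rn45s, the ribosomal RNA precursor, took 0.151%, 43.2% and 15.7% of reads in untreated replicates 1, 2 and 3, and at most 3.21% in a treated library. In CPM as deposited, the median gene lay 0.10 to 0.43 (log2) above untreated cells in the treated groups, and rescaling brings that median to about 0. The 11 macrophage markers were all present and summed to 19548 to 42328 CPM per library. Markers of natural killer cells summed to 0.403 to 0.760 CPM in untreated libraries and to 16.3 to 28.2 CPM under IFN-γ at 4 h. Only Klrk1 of these 5 genes reached 1 CPM, and Gzma was at 0. The 6 neutrophil markers summed to 89.4 to 212 CPM untreated and to 96.3 to 330 CPM under IFN-γ at 4 h. Those of endothelial cells, 5 genes, summed to 70.5 to 141 CPM and to 90.2 to 136 CPM. Of these only 2 reached 1 CPM, Vwf (59.6 to 143 CPM over all libraries) and Kdr (0.512 to 32.0 CPM). The part of such cells in the results was not tested. In bulk RNA, fewer cells of a type and less RNA per cell cannot be told apart.

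Of the 34 genes, 32 passed the filter of 1 CPM in 3 libraries. H2-Q6 and H2-Q7, which encode the Qa-2 antigen, were at 0 reads in all 21 libraries. A count of 0 allows up to 3 reads, or 0.0375 to 0.104 CPM by library. Of the 50-base words of H2-Q6 transcripts 32.0% also occur in other genes, and of those of H2-Q7 26.4%. Psmb5 shares 54.1% of its words and had 896 to 4624 reads per library. Whether shared words bear on the count of 0 was not tested. How reads that fit several genes were counted is not given in the sources used here, so a level of 0 is uncertain. H2-T22, a non-classical chain known as a ligand of some gamma-delta T cells, lay between 0.434 and 1.51 CPM. It passed the filter only through libraries with IFN-γ, and counts below leave it out, with 31 genes remaining.

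IFN-γ raised most of the pathway, and more of it at 4 h than at 2 h. At 2 h, 15 of 31 genes rose, where 10.8% of all tested genes did. At 4 h, 24 of 31 rose (25 of 32 with H2-T22), where 21.3% of all tested genes did. The median log2 change of the 31 genes was 0.39 at 2 h and 1.11 at 4 h, beside about 0.00 for all genes at both times. With both cytokines 14 rose at 2 h (background 12.8%) and 23 at 4 h (24 with H2-T22; background 22.8%), with medians of 0.40 and 1.08. IL-4 alone raised 1 gene at 2 h (background 5.51%) and 2 at 4 h, where 12% of all tested genes (1366 of 11380) were called higher and 22.1% in either direction. None of the 31 was called lower by limma or by edgeR in any of these 6 comparisons. The share of all tested genes called lower was 3.11% at 2 h and 10.1% at 4 h with IL-4, 7.10% and 17.8% with IFN-γ, and 9.38% and 19.8% with both. At an unadjusted p under 0.05 limma had 1 lower value, that of Nlrc5 under IL-4 at 4 h.

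The counts at 2 h fell in the following fits, which use fewer libraries and so also estimate changes less precisely. The part of the untreated libraries in this was not tested. With untreated replicate 1 as the only control, an alternative chosen after seeing the data, 9 genes passed at 2 h of IFN-γ, and H2-Q4, H2-T23, Psmb8, Psme1, Psme2 and Psma5 did not. With both cytokines 9 also passed at 2 h, and H2-Q4, Tapbpl, Psmb8, Psme1 and Psme2 did not. Leaving replicate 1 or 3 out of every group gave 7 or 5 genes for IFN-γ at 2 h and 8 or 5 for both. Both cytokines against IL-4 at 2 h, which uses no untreated library, went from 14 to 3 with either left out. At 4 h the same changes left 19 to 24 of 32 genes for IFN-γ.

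Across the 4 comparisons of IFN-γ, alone or with IL-4, with untreated cells, 14 genes rose in every one. These were H2-Q4, H2-T23, H2-T24, Tap1, Tap2, Tapbp, Tapbpl, Psmb8, Psmb9, Psmb10, Psme1, Psme2, Psma3 and Nlrc5. At most 10.8% of all tested genes can have risen in all 4, since that share rose at 2 h of IFN-γ. The 4 comparisons use the same untreated libraries, so they are not independent. Shares of all tested genes with the 2 patterns that follow were not computed. H2-K1, H2-M3, B2m, Calr, Erap1, Psma2, Psma4 and Psma7 passed the test at 4 h in both settings and at 2 h in neither. The direct comparison of 4 h with 2 h of IFN-γ called 6 of these 8, all except Psma2 and Psma4. Canx, Pdia3, Psmb5, Psmb6, Psmb7, Psma1 and Psma6 passed in none of the 4.

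With the replicate number as a block, this division was less sharp. The block added H2-K1, H2-D1, B2m, Psmb7, Psma2, Psma4 and Psma7 to the calls at 2 h of IFN-γ, making 22 genes (background 20.2%). It added B2m, Psmb7, Psma2, Psma5 and Psma7 at 2 h of both cytokines, making 19 (background 22.6%). At 4 h of IFN-γ it added Pdia3, Psmb5, Psmb7 and Psma6 (background 32.5%), and at 4 h of both H2-D1, Psmb5 and Psmb7 (background 33.4%). It also called Psma2 and Psma4 between 2 h and 4 h of IFN-γ, where its count was 28 genes (background 23.2%).

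**Figure D1:**
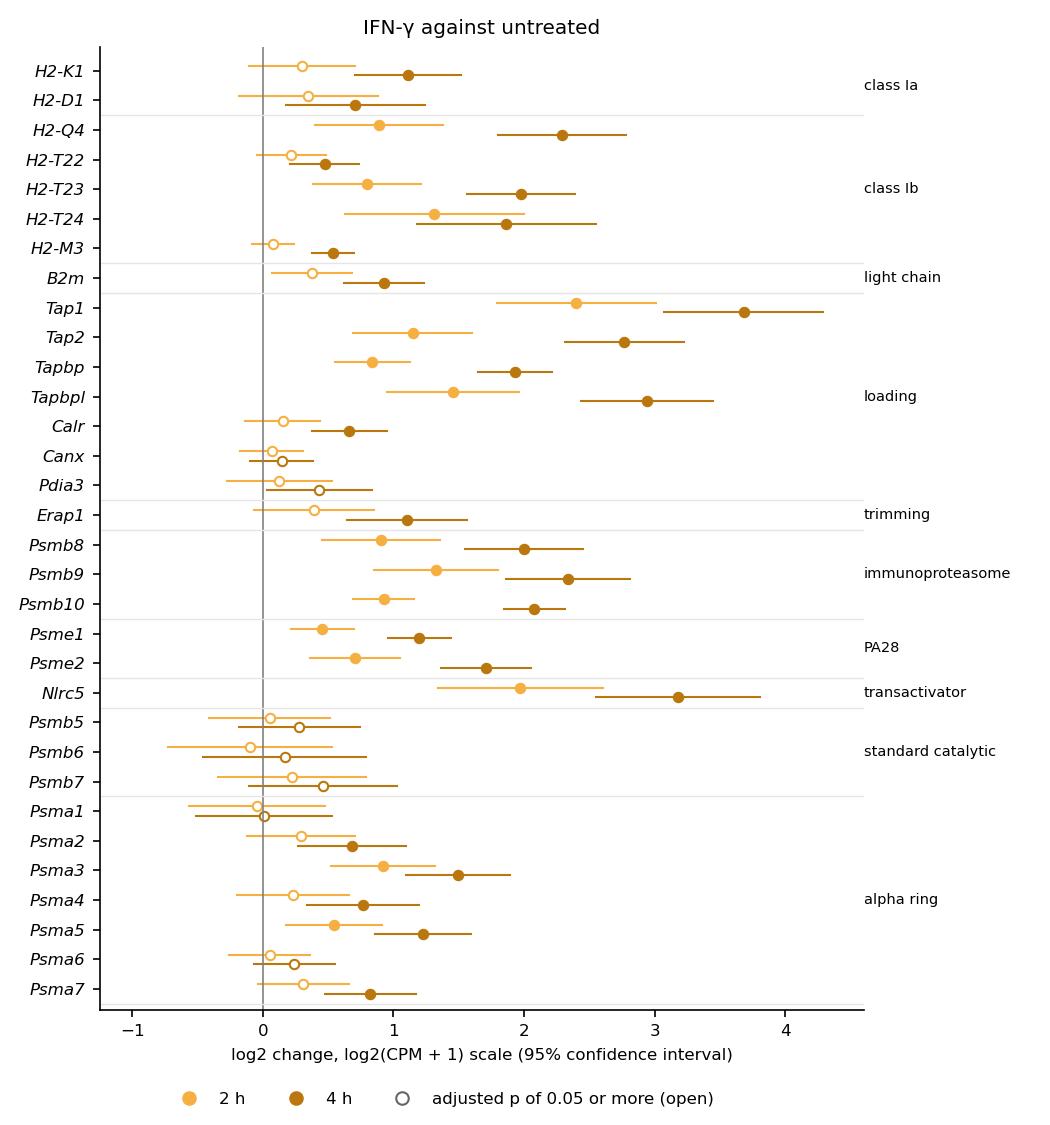
Log2 change against untreated macrophages, with its 95% confidence interval, for each of the tested genes under IFN-γ at 2 h and 4 h; filled points are adjusted p under 0.05 in limma. Tap1 reached 3.68 and Nlrc5 3.18 at 4 h, while Psma1 lay at 0.01.

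The promoter windows of B2m and of the 8 heavy chains that could be examined held a common motif. Windows of the 250 bases before each RefSeq start site (GRCm38.p6) were found for 29 of the 34 genes, and not for H2-T24, Tap2, Tapbpl, Nlrc5 and Psmb7, so these were not examined. An interferon-stimulated response element (ISRE, 2 copies of GAAA with any 2 bases between them) or a shorter IRF element (GAANNGAAA), overlapping patterns searched on both strands, was present in all 9 of these windows (8 chains and B2m). It was present in 1 of the other 20 windows (Psmb6), and in 8.86% of all 32526 windows. The word TTTCACTTC, an IRF element read on the opposite strand, was in 6 of the 9 and in 0.403% of all windows. It was chosen because these windows share it, so its share is a description and not a test. The windows of related chains are also not independent of each other. The stretches below are shown because they carry that element, in capitals. Each reads along the strand of its gene, towards the start site, with 10 bases on either side. That is the minus strand for H2-K1, H2-T22 and H2-T23 and the plus strand for the others. Those of H2-Q4 and H2-T23 follow from the rule of a match in a gene raised at both times, and the others were chosen after values were seen.
H2-K1 (chr17:34000419-34000447, 90 to 82 bases before the start): atctccacagTTTCACTTCtgcacctaac
H2-D1 (chr17:35262934-35262962, 150 to 142 bases before): atctcctcagTTTCACTTCtgcacctaac
H2-Q4 (chr17:35379454-35379482, 153 to 145 bases before): atctccccagTTTCACTTCtgctcctaac
H2-Q6 (chr17:35424688-35424716, 152 to 144 bases before): atctccccagTTTCACTTCtgctcctaac
H2-Q7 (chr17:35439032-35439060, 113 to 105 bases before): atctccccagTTTCACTTCtgctcctaac
H2-M3 (chr17:37270123-37270151, 101 to 93 bases before): tcctctgaggTTTCACTTCtctgtaactc
H2-T22 (chr17:36042914-36042943, ISRE, 191 to 182 bases before): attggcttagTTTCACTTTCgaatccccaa
H2-T23 (chr17:36032806-36032835, ISRE, 124 to 115 bases before): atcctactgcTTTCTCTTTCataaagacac
B2m (chr2:122147538-122147567, ISRE, 139 to 130 bases before): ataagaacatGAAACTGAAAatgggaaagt
The stretches of H2-Q4, H2-Q6 and H2-Q7 are the same letters, although H2-Q4 was expressed and the other two had no reads. A match describes the sequence and is not a measured binding site.

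In 7 of these 9 windows the element stood together with CCAAT, the core of the NF-Y site, and TGACG, the core of CREB/ATF sites, both searched on both strands. This was so for H2-K1, H2-D1, H2-Q4, H2-Q7, H2-T22, H2-M3 and B2m, for none of the other 20 genes, and for 0.443% of all windows. Singly, CCAAT was in 33.8% and TGACG in 17.9% of all windows. The windows of H2-K1 and B2m are shown, with the elements in capitals. That of B2m is printed as 249 bases, without the base next to the start site. In these 2 the order is IRF or ISRE, TGACG, then CCAAT read on the opposite strand as ATTGG. Both windows were chosen after values were seen. This order was not common to all 7. In H2-T22 TGACG came last, 22 to 18 bases before the start. In H2-Q4 a CCAAT match preceded TGACG, and in H2-M3 one preceded the IRF element.
H2-K1 (chr17:34000348-34000597, minus strand, the strand of the gene, whose start follows to the right): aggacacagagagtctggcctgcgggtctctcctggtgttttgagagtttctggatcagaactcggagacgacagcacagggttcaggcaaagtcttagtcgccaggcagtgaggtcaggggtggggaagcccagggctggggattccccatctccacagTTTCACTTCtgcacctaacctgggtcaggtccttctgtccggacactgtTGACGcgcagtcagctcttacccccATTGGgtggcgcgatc
B2m (chr2:122147437-122147685, plus strand, the strand of the gene, whose start follows to the right): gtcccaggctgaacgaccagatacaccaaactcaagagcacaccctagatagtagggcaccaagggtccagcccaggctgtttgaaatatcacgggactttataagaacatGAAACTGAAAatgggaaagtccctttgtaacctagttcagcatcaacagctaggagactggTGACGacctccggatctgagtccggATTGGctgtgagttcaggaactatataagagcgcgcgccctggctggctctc

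Of the classical heavy chains, H2-K1 (chromosome 17, 33996017 to 34000347, GRCm38) rose at 4 h of IFN-γ. It measured 1131, 842 and 865 CPM in untreated replicates 1, 2 and 3, and 1294, 997 and 1199 CPM at 2 h of IFN-γ. At 4 h it measured 2724, 1546 and 1974 CPM with IFN-γ, and 2009, 1716 and 1490 CPM with both cytokines. All libraries at 4 h lay above all untreated ones, while those at 2 h overlapped them. The change was 1.11 ± 0.19 at 4 h (limma adjusted p = 0.000201) and 0.30 at 2 h (adjusted p = 0.364, or 0.0496 with replicate number as a block). H2-K1 rose with both cytokines at 4 h by 0.88, a call that was lost with untreated replicate 1 as the only control.

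H2-D1, the other classical chain of this strain, moved less and depended on single libraries. It measured 780, 544 and 724 CPM untreated and 1436, 780 and 1199 CPM at 4 h of IFN-γ. Replicate 2 was the lowest in both groups, and its treated value lay just under the highest untreated one, so the groups overlapped. The change of 0.71 ± 0.25 passed the test (limma adjusted p = 0.0337), but not without untreated replicate 2 or 3, without IFN-γ replicate 1 or 3, or with untreated replicate 1 as the lone control. With both cytokines it measured 1044, 888 and 940 CPM at 4 h, a change of 0.50 that did not pass (adjusted p = 0.122, or 0.000369 with the block). At 2 h of IFN-γ its change of 0.35 also passed only with the block (adjusted p = 0.448, and 0.012 with the block).

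Of the non-classical chains, H2-Q4, H2-T23 and H2-T24 rose at both times. H2-Q4 (chromosome 17, 35379617 to 35385290) measured 65.3, 41.7 and 41 CPM untreated, 108, 75.2 and 89.5 CPM at 2 h of IFN-γ, and 339, 169 and 242 CPM at 4 h. Every treated library stood above every untreated one, and replicate 1 was highest in each of these groups. The change was 0.89 at 2 h (limma adjusted p = 0.0115) and 2.29 ± 0.23 at 4 h (adjusted p = 7.58e-07), a 4.90-fold rise on the log2(CPM + 1) scale. The call at 2 h was lost without untreated replicate 2, untreated replicate 3 or IFN-γ replicate 1. H2-Q4 shares 21.8% of its 50-base words with other genes, so its level is uncertain.

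H2-T23 encodes Qa-1, which presents leader peptides of other class I chains to receptors of natural killer cells. It measured 150, 194 and 145 CPM untreated, 302, 248 and 301 CPM at 2 h of IFN-γ, and 704, 529 and 705 CPM at 4 h. With both cytokines it measured 722, 698 and 743 CPM at 4 h, and no library with IFN-γ overlapped the untreated ones. Its change under IFN-γ was 0.80 at 2 h and 1.98 ± 0.20 at 4 h (limma adjusted p = 5.83e-07).

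H2-T24 measured 24.9, 51.7 and 29.8 CPM untreated, with replicate 2 well above the others, and 137, 112 and 130 CPM at 4 h of IFN-γ. It rose by 1.31 ± 0.32 at 2 h (limma adjusted p = 0.00792) and by 1.87 ± 0.32 at 4 h. H2-M3, which presents formylated peptides of bacteria and mitochondria, measured 36.1, 33.2 and 34.4 CPM untreated and 54.5, 46.7 and 51.1 CPM at 4 h of IFN-γ. The groups did not overlap, and the change was small but close between libraries at 0.54 ± 0.08 (adjusted p = 2.45e-05). At 2 h it was 0.08 and did not pass.

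B2m (chromosome 2, 122147686 to 122153083), the light chain that every heavy chain needs to reach the surface, had the highest level per kilobase of the set. It measured 1982, 2117 and 1943 CPM untreated, 2465, 2480 and 2939 CPM at 2 h of IFN-γ, and 4572, 2999 and 4095 CPM at 4 h. All treated libraries exceeded all untreated ones at both times. The change at 4 h was 0.93 ± 0.14 (limma adjusted p = 7.41e-05), a 1.90-fold rise, and at 2 h it was 0.38 (adjusted p = 0.0853, or 0.0173 with the block). With both cytokines B2m measured 3776, 3076 and 3507 CPM at 4 h and rose by 0.77.

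Peptide transport and loading held the largest rise of the set, that of Tap1, a chain of the TAP transporter. Tap1 measured 59.4, 82.9 and 57.5 CPM untreated, 378, 266 and 430 CPM at 2 h of IFN-γ, and 1011, 656 and 939 CPM at 4 h. With both cytokines it measured 345, 260 and 360 CPM at 2 h and 834, 694 and 767 CPM at 4 h. Every library with IFN-γ lay far above every untreated one, with replicate 2 highest among untreated and lowest among treated libraries. The change was 2.40 ± 0.29 at 2 h (limma adjusted p = 1.09e-05) and 3.68 ± 0.29 at 4 h (adjusted p = 3.61e-08), a 12.8-fold rise. Within replicate numbers the change at 4 h was 4.07, 2.97 and 4.01 for replicates 1, 2 and 3.

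Tap2, the partner chain of the transporter, also rose at both times. It measured 55.5, 59.3 and 63.1 CPM untreated, 142, 96.3 and 169 CPM at 2 h of IFN-γ, and 466, 304 and 485 CPM at 4 h. The treated and untreated libraries did not overlap. Its change was 1.15 at 2 h and 2.77 ± 0.21 at 4 h (limma adjusted p = 3.37e-08). Tap1 and Tap2 flank Psmb8 on chromosome 17, in the order Psmb9, Tap1, Psmb8 and Tap2 between 34181987 and 34216321.

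Tapbp encodes tapasin, which holds the heavy chain next to TAP, and Tapbpl encodes a related peptide editor. Tapbp measured 369, 358 and 362 CPM untreated, 722, 540 and 702 CPM at 2 h of IFN-γ, and 1539, 1143 and 1514 CPM at 4 h. The untreated libraries lay close together, and all treated ones were higher. Tapbp rose by 0.84 at 2 h and by 1.93 ± 0.13 at 4 h (limma adjusted p = 9.89e-09). Tapbpl measured 25.6, 19.6 and 22.1 CPM untreated and 203, 130 and 211 CPM at 4 h of IFN-γ, again with no overlap. It rose by 1.46 at 2 h and by 2.94 ± 0.24 at 4 h (adjusted p = 5.9e-08), a 7.67-fold rise against 3.81-fold for Tapbp.

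The general chaperones of the endoplasmic reticulum in the set, which also fold many other glycoproteins, moved less than Tap1, Tap2, Tapbp and Tapbpl. Calreticulin (Calr) measured 752, 879 and 856 CPM untreated and 1156, 1348 and 1444 CPM at 4 h of IFN-γ, and rose by 0.66 ± 0.14 (limma adjusted p = 0.000952). The call of Calr was lost in CPM without Rn45s and Lars2 and without replicate 3 in every group. The disulfide isomerase Pdia3 measured 607, 785 and 719 CPM untreated and 836, 980 and 1029 CPM at 4 h. Its groups did not overlap, yet the change of 0.43 did not pass (adjusted p = 0.0814, or 0.00248 with the block). Calnexin (Canx) overlapped between the groups, at 657 to 771 CPM untreated and 751 to 862 CPM at 4 h, a change of 0.14. Erap1, which trims peptides to the length that class I binds, measured 88.5, 132 and 95.3 CPM untreated and 257, 202 and 216 CPM at 4 h, and rose by 1.10 ± 0.22 (adjusted p = 0.000661). The call of Erap1 was lost without replicate 1 in every group.

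**Figure D2:**
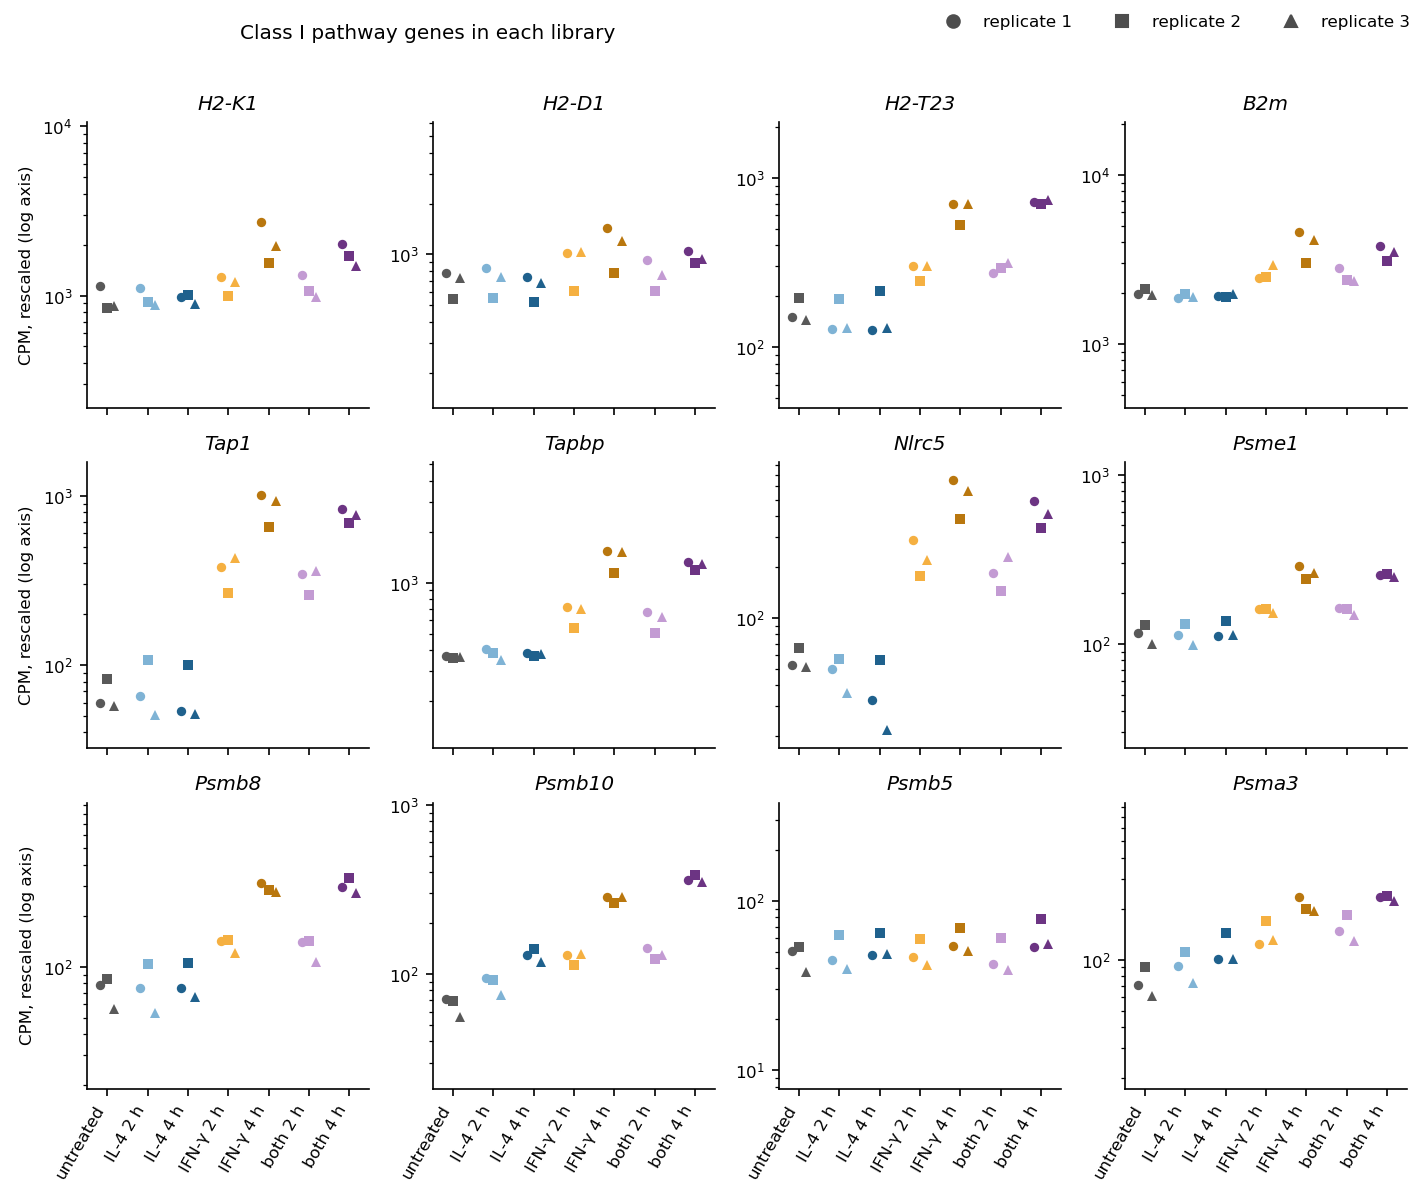
CPM (rescaled, log axis) in each of the 21 libraries, by group, for genes of each role, with a different marker for each replicate number. Tap1 rose from 57.5 to 82.9 CPM in untreated libraries to 656 to 1011 CPM at 4 h of IFN-γ, whereas the Psmb5 libraries of these groups lay between 38.0 and 69.0 CPM.

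Nlrc5 (chromosome 8, 94434356 to 94527272) had the second largest rise of the set. It measured 52.8, 66.8 and 50.9 CPM untreated, 288, 178 and 221 CPM at 2 h of IFN-γ, and 650, 385 and 559 CPM at 4 h. With both cytokines it measured 184, 144 and 229 CPM at 2 h and 493, 338 and 411 CPM at 4 h. All 12 libraries with IFN-γ lay above all libraries without it. The change was 1.97 ± 0.30 at 2 h (limma adjusted p = 0.000125) and 3.18 ± 0.30 at 4 h (adjusted p = 3.16e-07), a 9.06-fold rise. With IL-4 alone Nlrc5 measured 32.8, 56.6 and 21.7 CPM at 4 h, a change of -0.70 that did not pass (adjusted p = 0.109, or 0.0502 with the block).

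A list of 16 other regulators of class I genes was read beside Nlrc5. At 2 h of IFN-γ 6 of 16 rose and at 4 h 11 of 16 rose, beside 10.8% and 21.3% of all tested genes. Irf1, which binds ISRE and IRF elements, rose by 4.29 at 2 h and 4.92 at 4 h. Irf2, a relative of Irf1 that binds like sequences, rose by 0.83 and 1.40. Rfx5, a subunit of the RFX complex, changed by 0.08 at 2 h without passing and rose by 0.90 at 4 h. IL-4 alone raised Irf1 by 0.97 at 4 h (limma adjusted p = 0.0182).

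All 3 immunoproteasome subunits rose at both times. Psmb9 measured 24.3, 32.6 and 20.8 CPM untreated, 66.3, 57.6 and 72.7 CPM at 2 h of IFN-γ, and 142, 119 and 138 CPM at 4 h. Psmb8 measured 77.7, 84.7 and 56.1 CPM untreated, 142, 145 and 121 CPM at 2 h, and 312, 283 and 277 CPM at 4 h. For both genes, each step up left no overlap between the groups. The changes were 1.33 at 2 h and 2.34 ± 0.22 at 4 h for Psmb9 (limma adjusted p = 4.14e-07 at 4 h), and 0.91 and 2.00 ± 0.21 for Psmb8 (adjusted p = 1.46e-06 at 4 h).

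Psmb10 (chromosome 8, 105935735 to 105938444), alone of the 3 outside the MHC region, had the smallest standard error of them. It measured 71.2, 69.1 and 56.1 CPM untreated, 130, 113 and 132 CPM at 2 h of IFN-γ, and 286, 264 and 287 CPM at 4 h. No treated library overlapped the untreated ones. The change was 0.93 ± 0.11 at 2 h (limma adjusted p = 1.03e-05) and 2.08 ± 0.11 at 4 h (adjusted p = 5.21e-10).

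Psmb9 and Tap1 start 225 bases apart on opposite strands of chromosome 17 (start sites 34187330 and 34187556). The 225 bases between the start sites lie in both promoter windows. Neither window held a match to the ISRE, to the IRF element or to GAS (TTCNNNGAA, both strands), the gamma-activated site motif, although Tap1 and Psmb9 rose 12.8-fold and 5.06-fold. The annotated genes also overlap, and the strand setting of the counting is not given in the sources used here, so reads of this overlap are uncertain. A GAS match was present in the windows of Psmb8 and H2-M3, 2 of 29, and in 7.04% of all windows. The match of Psmb8 is shown, by the rule given above, with GAS in capitals.
Psmb8 (chr17:34198088-34198116, plus strand, 97 to 89 bases before the start): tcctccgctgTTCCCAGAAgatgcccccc

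The standard catalytic subunits that these 3 replace did not pass the test under IFN-γ. Psmb5 measured 50.9, 53.7 and 38.0 CPM untreated and 54.0, 69.0 and 50.4 CPM at 4 h, a change of 0.28 (limma adjusted p = 0.341, or 0.00606 with the block). Psmb6 changed by 0.17 (adjusted p = 0.707, or 0.0633 with the block) and Psmb7 by 0.46 (adjusted p = 0.19, or 4.04e-05 with the block). For all 3 genes the libraries at 4 h overlapped the untreated ones, and replicate 2 was the highest of every group. Psmb5 shares 54.1% of its 50-base words with other genes, so its level is the least certain of these.

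The ratio of each immunoproteasome subunit to the subunit it replaces was taken within each library, where rescaling cancels. The ratio of Psmb8 to Psmb5 went from 1.53 ± 0.0519 (SD, n = 3) untreated to 2.79 ± 0.333 at 2 h and 5.12 ± 0.897 at 4 h of IFN-γ, and was 4.91 ± 0.628 at 4 h of both cytokines. The ratio of Psmb9 to Psmb6 went from 0.245 ± 0.00930 to 0.701 ± 0.219 and 1.17 ± 0.330, and was 1.31 ± 0.278 with both. The ratio of Psmb10 to Psmb7 went from 0.838 ± 0.175 to 1.41 ± 0.456 and 2.61 ± 0.636, and was 3.32 ± 0.504 with both. Within each ratio, every library at 4 h with IFN-γ exceeded every library without it.

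All 12 libraries with IFN-γ were compared with the 9 without it, and 6 such tests were run in all. The difference in log2 ratio was 1.28 for Psmb8 to Psmb5 and 1.76 for Psmb9 to Psmb6. Both had a two-sided exact permutation p of 6.8e-06 over 293930 regroupings (adjusted 2.04e-05), and the 2 sets of libraries did not overlap. For Psmb10 to Psmb7 it was 0.96 (exact permutation p = 0.00179, adjusted 0.00358), and without replicate 3 it was 0.83, with an adjusted exact permutation p of 0.0639. These regroupings take no account of the replicate numbers. With untreated and 4 h libraries only (6 against 6), the 3 differences were 1.71, 2.15 and 1.49. Each had an exact permutation p of 0.00216 (adjusted 0.00433). Between both cytokines and IFN-γ alone (6 libraries each) the differences were -0.03, 0.04 and 0.20, and none passed. The exact permutation p were 0.926, 0.911 and 0.589, adjusted over the 6 tests 0.926, 0.926 and 0.883. These sets pool 2 h and 4 h, so the spread between times enters the test. At 4 h alone (3 libraries each) the differences were -0.05, 0.17 and 0.36. The 20 regroupings there cannot give a p under 0.05, so differences of that size remain undecided.

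**Figure D3:**
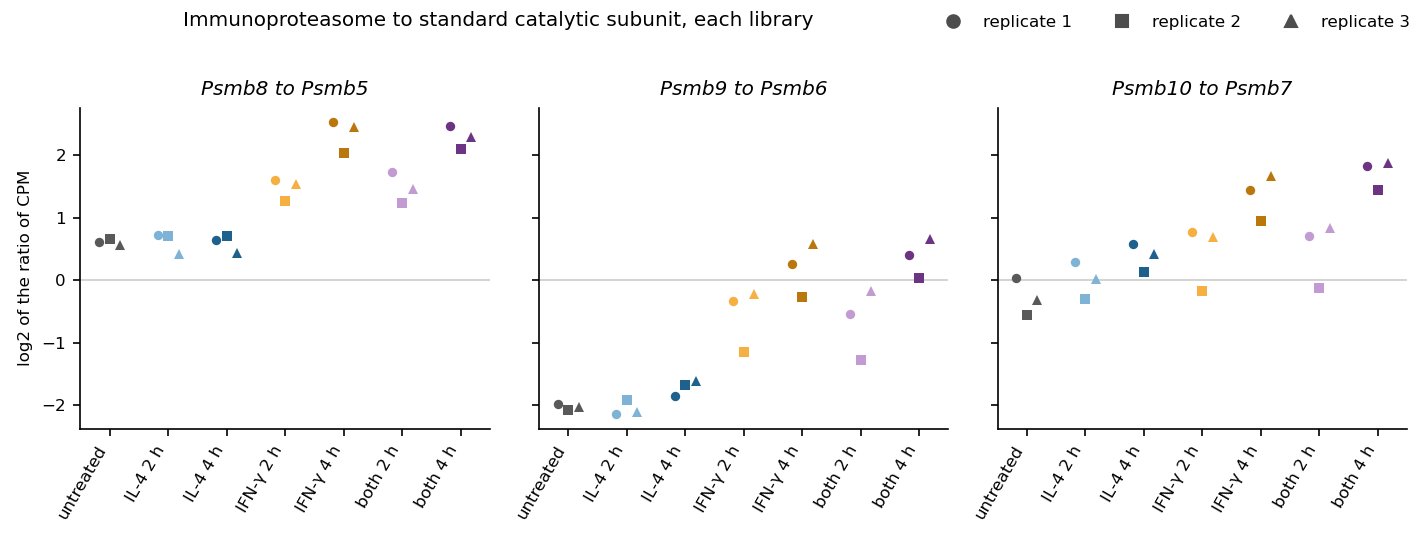
Log2 ratio of each immunoproteasome subunit to the standard subunit it replaces, in each of the 21 libraries by group, with markers by replicate number. All libraries with IFN-γ at 4 h lie above all libraries without IFN-γ in each panel, and the mean Psmb10 to Psmb7 ratio was 0.838 untreated and 1.31 at 4 h of IL-4, a difference that was not tested.

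Psme1 and Psme2 encode PA28, a ring that opens the proteasome and is known to be induced by IFN-γ. Psme1 measured 116, 130 and 99.4 CPM untreated and 290, 242 and 261 CPM at 4 h of IFN-γ. Psme2 measured 91.2, 99.7 and 70.5 CPM untreated and 332, 240 and 287 CPM at 4 h. Both had every treated library above the untreated ones and rose at both times, Psme1 by 0.46 and 1.20 ± 0.11 (limma adjusted p = 3.88e-07 at 4 h), Psme2 by 0.70 and 1.71 ± 0.16 (adjusted p = 3.75e-07 at 4 h). The call of Psme1 at 2 h was lost without untreated replicate 3. Psme2 shares 28.3% of its 50-base words with other genes.

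The alpha ring is common to the standard and the immunoproteasome, and its subunits differed among themselves. At 4 h of IFN-γ 5 of 7 rose: Psma3 by 1.50 ± 0.19 (limma adjusted p = 7.67e-06), Psma5 by 1.23, Psma7 by 0.82, Psma4 by 0.77 and Psma2 by 0.68. Psma1 changed by 0.01 and Psma6 by 0.24, and neither passed (adjusted p = 0.213 for Psma6, or 0.0091 with the block). The Psma2 call was lost without untreated replicate 3. Those of Psma2, Psma4 and Psma7 were lost in CPM without Rn45s and Lars2 and without replicate 3 in every group. Leaving replicate 1 out of every group lost Psma2 and Psma4. Psma3 measured 70.4, 90.7 and 61.3 CPM untreated, 123, 168 and 130 CPM at 2 h and 233, 200 and 194 CPM at 4 h, with no overlap, while Psma1 overlapped at 94.9 to 137 CPM untreated and 97.7 to 140 CPM at 4 h. At 2 h Psma3 and Psma5 rose (0.92 ± 0.19 and 0.55), the latter not without untreated replicate 1 or 3 or IFN-γ replicate 2. Psma3 and Psma5 share 15.4% and 49.1% of their 50-base words with other genes.

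Other genes of antigen processing were read from fixed lists. At 4 h of IFN-γ 6 of 12 genes of the beta ring and proteasome assembly rose, led by the assembly factor Pomp (0.85) and by Psmb4 (0.69), and none was lower. Of 21 subunits of the 19S regulator, which feeds tagged proteins to the proteasome, 7 rose, led by Psmd7 (0.64) and Psmd6 (0.60), and Psmd5 fell by 0.58. Of 10 peptidases 4 rose, led by Lap3 (1.94) and Tpp2 (0.81), and of 23 genes of folding and export 7 rose, led by Hspa5 (1.09) and Syvn1 (1.02), while Sec23a fell by 0.36. Of 6 other class I-like chains that were tested, H2-Q5 rose (1.82). These shares can be read against the 21.3% of all tested genes. With the replicate block 13 of the 19S subunits, 14 genes of folding and export and 3 class I-like chains were higher, where 32.5% of all tested genes were.

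IL-4 alone raised Psmb10 at both times. Psmb10 measured 94.8, 92.3 and 75.6 CPM at 2 h and 130, 141 and 119 CPM at 4 h of IL-4, beside 56.1 to 71.2 CPM untreated. Every IL-4 library exceeded every untreated one. The change was 0.41 ± 0.11 at 2 h (limma adjusted p = 0.0245) and 0.98 ± 0.11 at 4 h (adjusted p = 5.93e-06). The call at 2 h was lost without untreated replicate 3, without IL-4 replicate 1 or 2, or with the lone control.

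The other gene that rose under IL-4 was Psma3, at 4 h, where it measured 100, 143 and 101 CPM against 61.3 to 90.7 CPM untreated, with no overlap. Its change was 0.62 ± 0.19 (limma adjusted p = 0.0233), lost without untreated replicate 1 or 3, without IL-4 replicate 2, or with the lone control. Psmb8 and Psmb9 overlapped with untreated cells under IL-4 at both times, with changes of 0.16 each at 4 h. The count of 2 at 4 h moved with the processing: it was 16 of 32 in CPM as deposited, where 34.1% of all tested genes were called higher, and 8 with the replicate block, where 23.9% were. The block added H2-M3, Tapbpl, Psmb7, Psma2, Psma4 and Psma5. Of these Tapbpl measured 36.4, 26.3 and 33.6 CPM at 4 h of IL-4, above 19.6 to 25.6 CPM untreated, a change of 0.49 (adjusted p = 0.161, or 0.000675 with the block).

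Of the other lists, IL-4 at 4 h raised 5 of 12 genes of the beta ring and assembly, led by the chaperone Psmg1 (0.97) and the activator Psme4 (0.88). It raised 4 of 23 genes of folding and export, led by Pdia4 (2.35) and Sec61a1 (0.69), and none of 21 subunits of the 19S regulator passed in limma. The share of all tested genes called higher was 12%. These counts moved with the processing: as deposited they were 9, 16 and 11 (background 34.1%), and with the replicate block 7, 12 and 7 (background 23.9%).

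Between both cytokines and IFN-γ alone, 1 gene of the set passed the test. At 2 h none of the 31 genes passed in limma, in edgeR or at an unadjusted p under 0.05, where 3.01% of all tested genes were called. At 4 h 1 passed, Psmb10, which was higher (background 5.90% higher and 11.9% in either direction). Psmb10 measured 359, 387 and 351 CPM with both cytokines and 286, 264 and 287 CPM with IFN-γ, with no overlap, a change of 0.39 ± 0.11 (limma adjusted p = 0.0261, or 0.00369 with the block). The call was lost in CPM as deposited (adjusted p = 0.144), and it held without combination replicate 3 but not without any other of the 6 libraries. In edgeR it passed (adjusted p = 0.0183).

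The 95% confidence intervals limit the size of a difference that these libraries could have missed. The median change was -0.06 at 2 h and -0.12 at 4 h, beside -0.02 and -0.03 for all genes, and 21 of 31 genes were negative at each time. The lowest bound of any of the 31 was -0.93 at 2 h and -0.97 at 4 h, both for Nlrc5, whose change at 4 h was -0.34. The highest bound of any of the 31 was 1.01 at 2 h and 0.94 at 4 h. Each interval is for 1 gene and is not adjusted for the number of genes. Tap1 changed by -0.16 at 4 h, with an interval from -0.77 to 0.44, H2-K1 by -0.23, H2-D1 by -0.21 and B2m by -0.15. The replicate block called H2-Q4 (-0.34, limma adjusted p = 0.454, or 0.0311 with the block) and Tapbpl (-0.35, 0.466, or 0.0142 with the block) lower at 4 h, where it called 18.8% of all tested genes lower.

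**Figure D4:**
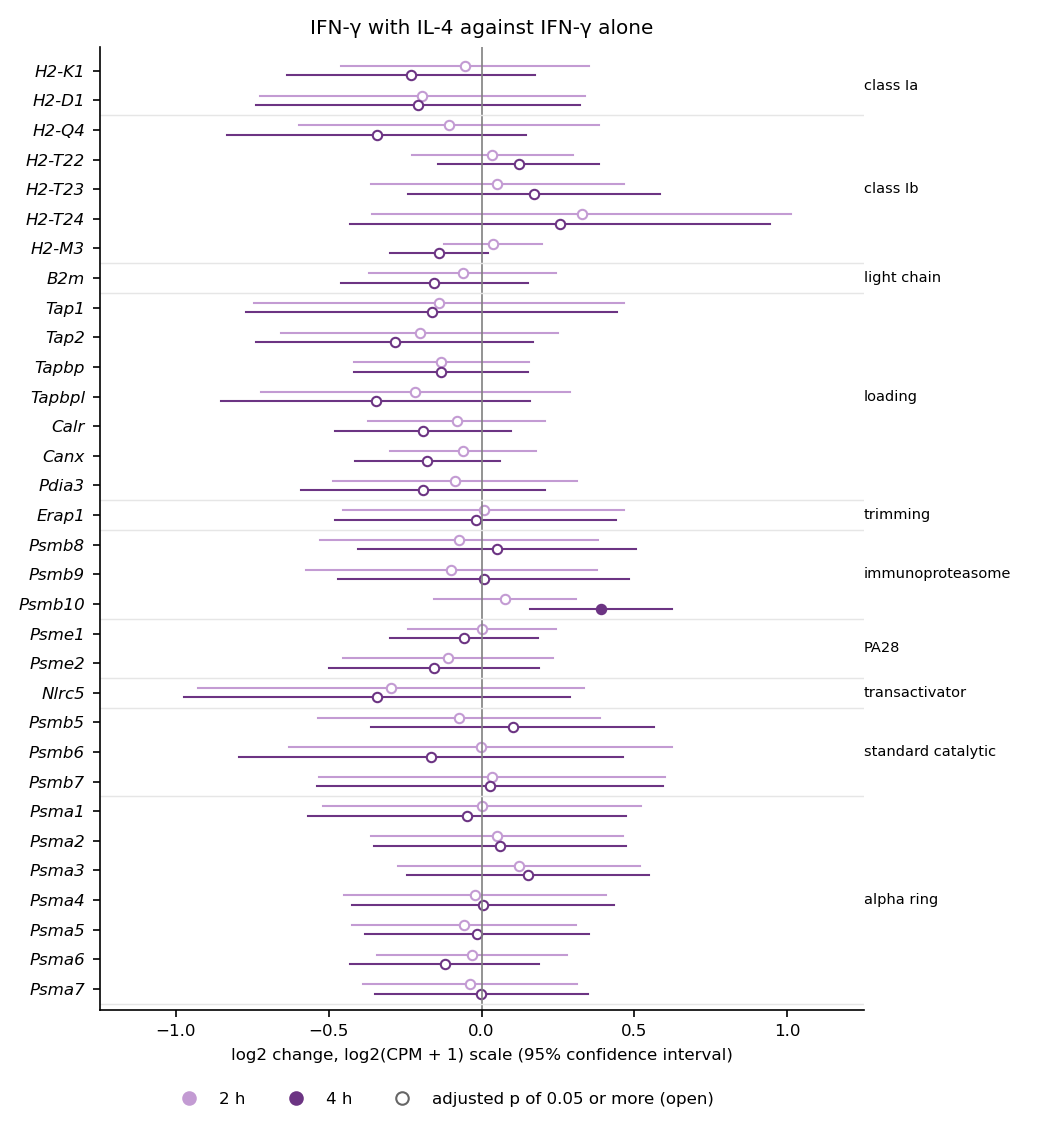
Log2 change between both cytokines and IFN-γ alone, with its 95% confidence interval, for each tested gene at 2 h and 4 h; filled points are adjusted p under 0.05 in limma. Psmb10 at 4 h (0.39) is the one filled point, and the intervals of the other genes include 0.

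With both cytokines at 4 h, 3 of the 16 other regulators were lower than with IFN-γ alone (background 5.98% lower), among them Rfx5 (-0.85 ± 0.11, limma adjusted p = 4.93e-05) and Rela, an NF-κB subunit (-1.06). Irf1 (-0.22) did not pass. The count was 1 in CPM as deposited (background 2.21%) and 6 with the replicate block (background 18.8%). The class I-like chain H2-Q5 was also lower (-0.77) and the iron regulator Hfe higher (0.82). Of the assembly factors Psmg1 (0.64) and Psmg3 (0.52) were higher, among 3 of the 12 genes of that list, and none of the list was called in CPM as deposited.

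Against IL-4 alone, both cytokines raised 14 genes at 2 h (background 8.68%) and 19 of 31 at 4 h (20 with H2-T22; background 15.7%). The count at 2 h was 7 in CPM as deposited (background 4.95%) and 9 without IL-4 replicate 3 at 2 h, and 3 without replicate 1 or replicate 3 in every group. The interaction, which is the change under both cytokines minus the sum of the single changes, called none of the 31 genes in limma or edgeR at either time (background 0.369% at 2 h and 1.70% at 4 h). At an unadjusted p under 0.05 there was 1 gene at 2 h and there were 3 at 4 h, all below 0. Those at 4 h were Psmb10 (-0.59 ± 0.16, limma adjusted p = 0.0696), Tapbpl (-0.84 ± 0.34, adjusted p = 0.320) and H2-M3 (-0.35 ± 0.11, adjusted p = 0.134). The block called all 3 (limma adjusted p = 0.00642, 0.000836 and 0.0199, background 8.66% lower), and 2 genes passed when IFN-γ replicate 2 at 4 h was left out.

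Between 2 h and 4 h of IFN-γ 20 of 31 genes rose further (background 9.89%). The largest of these were Tap2 (1.62), Tapbpl (1.48), H2-Q4 (1.40), Tap1 (1.28), Nlrc5 (1.21) and H2-T23 (1.18). With both cytokines 19 rose (background 9.41%), the same genes apart from Calr. With IL-4 alone 1 rose, Psmb10 (background 1.27%), by 0.56 ± 0.11 (limma adjusted p = 0.0089), and not in CPM as deposited or without IL-4 replicate 3 at 2 h. The counts with IFN-γ were 11 and 12 in CPM as deposited (background 3.15% and 3.31%). Leaving out replicate 3 from all groups gave 8 in both, and leaving out replicate 1 gave 9 and 10.

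The rise under IFN-γ differed between replicate numbers. Within replicates 1, 2 and 3, the median log2 change over the 31 genes at 4 h was 1.31, 0.88 and 1.19, and 28 of 31 genes had their lowest change in replicate 2. At 2 h the medians were 0.39, 0.33 and 0.57, and the lowest change lay in replicate 1 for 16 genes and in replicate 2 for 15. The same split over all tested genes was not computed, so it is not shown to be particular to the set. The change at 4 h was positive in all 3 replicates for 29 of 31 genes. Untreated replicate 2 is also the library with the largest share of Rn45s reads, whose part in this was not tested.

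Per kilobase of annotated exon, B2m led in untreated cells with 2342 ± 106 CPM (SD, n = 3). H2-K1 (322 ± 54.6), Calr (288 ± 23.5), H2-D1 (265 ± 47.8) and Pdia3 (224 ± 28.6) followed, each within the spread of the next, and then Canx (156 ± 13.9) and Tapbp (100.0 ± 1.52). Tap1 (12.2 ± 2.58), Tapbpl (9.53 ± 1.28), Psmb9 (7.07 ± 1.66) and Nlrc5 (6.69 ± 1.02) were the lowest above H2-T22 (0.181), the first clear of the last but neighbours within their spread. At 4 h of IFN-γ B2m (4522 ± 938) and H2-K1 (709 ± 203) still led. Tapbp (386 ± 61.1) then lay within the spread of H2-D1 (441 ± 129), and Tap1 (159 ± 34.2) stood beside Psmb10 (163 ± 7.65), Psme2 (162 ± 26.0) and Canx (172 ± 11.9).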

How the data were processed

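Poly(A) RNA-seq of 21 libraries was analysed. Per the submitters' processing notes, TopHat2 2.1.0, HTSeq and edgeR were used with mm10 (GRCm38); further settings are not given in the sources used here. The authors deposited CPM per gene, which here were divided by median-ratio factors (0.577 to 1.21). The smallest value of a library was taken as 1 read, and 100% of values were then whole reads within 0.01 read. Genes with at least 1 CPM in 3 libraries (11380) were fitted as log2(CPM + 1) with limma 3.58.1 (trend, 7 group means, 14 residual degrees of freedom, 15 contrasts, Benjamini-Hochberg within each) in R 4.3.3. edgeR 4.0.16 on the recovered reads, other scalings, a pseudocount of 0.1, no filter, a replicate block and left-out libraries were alternatives. For IFN-γ at 4 h, edgeR called 4439 genes and limma 4456. The fits were tested on simulated data. Replicate numbers paired the libraries. Over all tested genes, after removal of group means, 63 same-number pairs correlated at 0.539 to 0.951 and 126 different-number pairs at 0.369 or less. Over the tested members of the set these ran from -0.0598 to 0.973 and from -0.871 to 0.657, so they overlapped. The main limma fit, with its calls and intervals, ignores this pairing, and the replicate block takes it into account. The labels do not say whether replicates were separate animals or cultures, so p-values reflect the spread among these libraries only, and it may be technical. The members and lists were chosen with earlier results of these data known, and all 34 members and the fixed lists are reported by role. Coordinates and exon lengths are from GENCODE vM21, and sequences from RefSeq (GRCm38.p6). A regulator that the rule for named genes covers is not reported here.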

Additional observations from a re-analysis of the deposited data

Results flagged for a closer look

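The effect of treatment differed between time points by a direct test for members of the set in each of 3 cytokine settings. limma called 20 genes higher at 4 h than at 2 h of IFN-γ, 19 with both cytokines and 1 with IL-4 alone. Groups of 3 libraries are too small for the test for a single outlying library.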

How the results depend on the processing

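No called change of a member reversed under any alternative. Of 156 called changes, edgeR on recovered reads kept 151, TMM 154, a pseudocount of 0.1 all 156, no filter 148, CPM without Rn45s and Lars2 131 and CPM as deposited 127. As deposited, the count of called members became 3 for IL-4 at 2 h, 16 for IL-4 at 4 h, 0 for both cytokines against IFN-γ at 4 h, and 7 for both against IL-4 at 2 h; for 4 h against 2 h it became 0 with IL-4, 11 with IFN-γ and 12 with both. Without Rn45s and Lars2, IL-4 at 4 h gave 4. The replicate block gave 8 for IL-4 at 4 h, 3 for both against IFN-γ at 4 h, 3 for IL-4 at 4 h against 2 h and 3 for the interaction at 4 h, and it lost none of the 156. With untreated replicate 1 as the lone control, chosen after seeing the data, the counts were 0 and 1 for IL-4 at 2 h and 4 h, 9 for IFN-γ at 2 h and 9 for both at 2 h; the lone library is assumed to vary like the other groups. The causes were not tested.

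Leaving out libraries or a replicate number gave 0 to 1 and 1 to 9 for IL-4 at 2 h and 4 h, 5 to 17 and 19 to 27 for IFN-γ, and 5 to 17 and 20 to 26 for both. It gave 0 and 0 to 1 for both against IFN-γ, 3 to 16 and 17 to 23 for both against IL-4, and 0 and 0 to 2 for the interaction. For 4 h against 2 h it gave 0 to 1 with IL-4, 8 to 23 with IFN-γ and 8 to 22 with both. The lowest counts came from leaving out replicate 1 or 3 everywhere. With against without IFN-γ, the log2 ratio difference ranged from 1.19 to 1.44 for Psmb8 to Psmb5, 1.58 to 2.03 for Psmb9 to Psmb6 and 0.83 to 1.06 for Psmb10 to Psmb7. With labels permuted within replicate numbers (the replicate block), the 3 adjusted exact permutation p were 7.0e-05, 7.0e-05 and 0.0021.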
